A study of Mus musculus with 4 samples.

Results

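Bone marrow-derived mast cells (BMMCs) that had been cocultured with the Notch ligand Dll1 were compared with BMMCs kept in plain medium. Each side of the comparison was 1 array, so 2 of the 4 arrays in the series were used and no value below has a replicate check or a p-value. The BMMCs were grown from bone marrow of BALB/c mice for 3 to 4 weeks in interleukin-3 and stem cell factor, both at 10 ng/ml. The control cells then stayed for 6 days in medium with no added ligand. The Dll1 cells spent the same 6 days on Chinese hamster ovary (CHO) cells, a fibroblast-like line of hamster origin, that carried mouse Dll1. They were afterwards selected for c-Kit, the stem cell factor receptor, with magnetic beads. No coculture with CHO cells lacking the ligand and no bead-selected control culture was analysed here, so the effects of Dll1, of growing on hamster cells and of bead selection cannot be told apart. The other 2 arrays, used here for side by side values, held BMMCs kept for 6 days with TGF-β1 at 5 ng/ml and mast cells sorted by flow cytometry from the small intestine of naive mice. The labels name neither the number of mice nor the number of cultures behind an array. Members of the comparison were the 23521 of 33793 probe sets that carry 1 gene symbol, which stood for 22180 genes.

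Notch receptors are cleaved when a ligand on a neighbouring cell pulls on them. The freed inner part enters the nucleus, binds the DNA-binding protein RBPJ together with Mastermind co-activators, and switches on genes such as Hes1. Dll1 is one of the mouse ligands, and Notch signals are best known for steering blood progenitors to the T cell lineage. Mucosal mast cells are the mast cells of the gut lining. In mice their granules are rich in the chymases Mcpt1 and Mcpt2, while mast cells of connective tissue carry Mcpt4, Cma1 and tryptases.

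Levels are the deposited log2 array values, and 1 unit is a 2-fold difference. They are set against each other for the same gene only, since different genes have different probes. A value counted as above background when it passed the 95th percentile of 1438 probe sets for odour, vomeronasal and taste receptors, which was 5.12 on the control array and 5.13 on the Dll1 array. A gene was called higher or lower when it was above background on at least 1 of the 2 arrays and differed at least 2-fold. Values under the limit were first raised to it, and such a fold is printed as "at least". A change stated without that call is given as a value.

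All 9 mast cell markers were above background on both arrays, and none was called. Markers of granulocytes were above background on the Dll1 array too, as given below. The stem cell factor receptor Kit read 12.65 in control BMMCs and 12.54 after Dll1 coculture. The Dll1 cells had been selected for c-Kit, so their Kit value is no independent check of the label. Fcer1a, the IgE-binding chain of the high-affinity IgE receptor, read 12.41 and 12.39. The granule carboxypeptidase Cpa3 read 13.06 and 13.11, close to the highest value of either array (13.06 and 13.11), where saturation could hide a difference. In such bulk RNA, fewer cells of a type and less RNA per cell cannot be told apart.

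Of 12756 genes above background on at least 1 of the 2 arrays, 209 (1.64%) were higher and 227 (1.78%) lower after Dll1 coculture. The median difference over these genes was 0.00, and the middle 95% lay between -0.93 and 0.86. The large differences were mostly upward: 50 genes were at least 4-fold higher against 17 lower, and 18 were at least 8-fold higher against 4 lower. Of all 22180 genes, 12323 were above background on the Dll1 array and 11666 on the control array. The median over all genes was 5.31 on the Dll1 array and 5.21 on the control array. Among tested genes with a mean level of 5 to 6 the median difference was 0.09, and at each level above 6 it was -0.07 to -0.04. With the medians over all genes subtracted, 169 genes were higher and 332 lower. The share of higher among called genes was then 33.7% in place of 47.9%. That setting lowers the difference of every tested gene though their median was 0.00, so it is an alternative and not a correction. As a gauge of technical spread, probe sets of the same gene differed by an SD of 0.39 in their log2 difference, over 399 genes. That spread covers no variation between cultures.

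**Figure D1:**
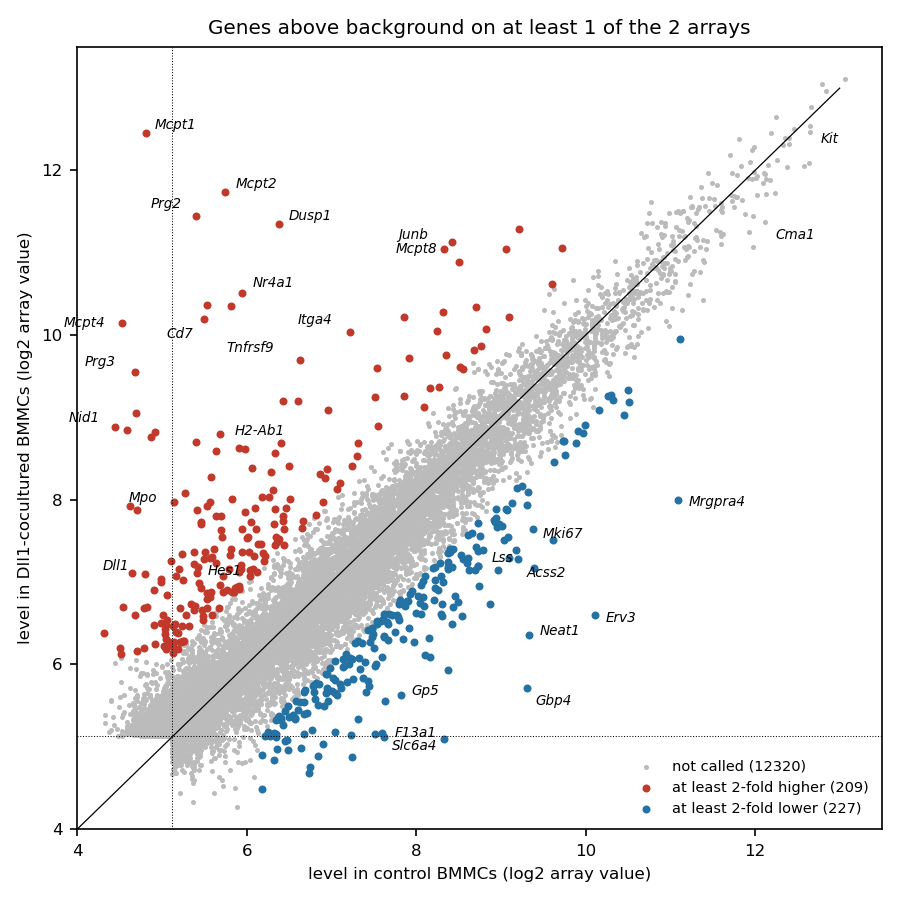
Each point is 1 of 12756 genes, placed by its log2 level on the control array (x axis) and on the Dll1 array (y axis), with 209 genes at least 2-fold higher in red, 227 at least 2-fold lower in blue and dotted lines at the background limits. Mcpt1, Mcpt2, Prg2 and Mcpt4 lie far above the line of equal values, while Gbp4 and Erv3 lie farthest below it.

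Promoters of some called members of 4 gene groups described below are shown first, so that the letters they share can be read beside the values. They are RefSeq sequences of GRCm38.p6, 250 bases before the gene start, read along the gene, and 10024 of the genes tested had one. Mcpt1 (chr14:56017714-56017963, forward strand) and Mcpt4 (chr14:56062311-56062560, reverse strand) were the chymases with the largest bounds. Capitals mark the RBPJ core TGGGAA, searched on both strands, so that TTCCCA is the same letters on the other strand.
Mcpt1: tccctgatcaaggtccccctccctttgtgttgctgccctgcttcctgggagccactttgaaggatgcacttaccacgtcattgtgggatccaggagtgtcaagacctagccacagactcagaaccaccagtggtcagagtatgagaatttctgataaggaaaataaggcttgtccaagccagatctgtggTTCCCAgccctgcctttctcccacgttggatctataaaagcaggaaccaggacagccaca
Mcpt4: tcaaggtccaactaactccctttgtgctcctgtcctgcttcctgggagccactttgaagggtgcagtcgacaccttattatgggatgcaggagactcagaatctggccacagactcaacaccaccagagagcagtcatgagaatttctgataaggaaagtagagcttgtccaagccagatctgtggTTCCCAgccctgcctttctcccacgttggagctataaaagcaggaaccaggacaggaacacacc
These letters start 60 bases before the start of Mcpt1 and 64 before that of Mcpt4, inside a run of 53 bases that the 2 promoters share without a difference. The core occurred in these 2 of 13 granule protease promoters (15.4%), in 38 of 151 promoters of higher genes (25.2%), 33 of 174 of lower genes and 2058 of 10024 of genes tested (20.5%). A match of these letters is a description and not a binding site.

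Dusp1 (chr17:26508473-26508722, reverse strand), Nr4a1 (chr15:101266596-101266845, forward strand) and Fosb (chr7:19310046-19310295, reverse strand) were among the highest immediate early genes. In their promoters, capitals mark TGACG, the core of the cAMP response element, on either strand. The capitals in Dusp1 hold 2 overlapping matches, which together spell the full palindrome TGACGTCA.
Dusp1: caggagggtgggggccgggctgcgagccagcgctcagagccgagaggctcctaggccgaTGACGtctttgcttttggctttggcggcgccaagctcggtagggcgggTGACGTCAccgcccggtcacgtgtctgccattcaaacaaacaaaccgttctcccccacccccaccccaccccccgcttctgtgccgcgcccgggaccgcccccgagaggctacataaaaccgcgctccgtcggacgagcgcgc
Nr4a1: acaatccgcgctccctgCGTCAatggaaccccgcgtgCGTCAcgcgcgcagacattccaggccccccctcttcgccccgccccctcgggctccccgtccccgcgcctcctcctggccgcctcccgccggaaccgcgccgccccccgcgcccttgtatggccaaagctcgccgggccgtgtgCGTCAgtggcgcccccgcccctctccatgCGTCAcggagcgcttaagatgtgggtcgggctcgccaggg
Fosb: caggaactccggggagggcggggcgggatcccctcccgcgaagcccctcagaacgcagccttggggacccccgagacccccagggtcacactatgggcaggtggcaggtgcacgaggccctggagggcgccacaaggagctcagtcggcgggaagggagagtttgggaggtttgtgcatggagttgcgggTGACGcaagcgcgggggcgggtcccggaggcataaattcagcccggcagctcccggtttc
TGACG was found in 17 of 32 immediate early promoters (53.1%), against 2659 of 10024 promoters of genes tested (26.5%) and 29 of 151 of all higher genes (19.2%).

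Hmgcs1 (chr13:119690101-119690350, forward strand) and Mvd (chr8:122443423-122443672, reverse strand), 2 enzymes of cholesterol synthesis, were lower. Capitals mark CCAAT, the box bound by the factor NF-Y, on either strand, and in Hmgcs1 also CACCCCAC, a sterol response element.
Hmgcs1: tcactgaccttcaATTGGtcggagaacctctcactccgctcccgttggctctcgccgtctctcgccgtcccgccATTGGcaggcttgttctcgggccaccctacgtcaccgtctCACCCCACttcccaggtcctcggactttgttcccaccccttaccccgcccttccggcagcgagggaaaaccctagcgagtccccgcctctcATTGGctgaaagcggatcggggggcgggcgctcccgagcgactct
Mvd: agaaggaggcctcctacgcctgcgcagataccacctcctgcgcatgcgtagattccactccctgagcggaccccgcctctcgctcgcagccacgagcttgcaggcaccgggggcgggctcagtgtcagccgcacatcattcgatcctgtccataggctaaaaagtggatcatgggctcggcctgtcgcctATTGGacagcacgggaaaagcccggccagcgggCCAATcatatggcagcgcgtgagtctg
The CCAAT box was found in 12 of 13 promoters of cholesterol synthesis genes (92.3%), in 28 of 39 of G2 and mitosis genes (71.8%) and in 3589 of 10024 of genes tested (35.8%). CACCCCAC, exactly as spelled, was found in 1 of the 13, that of Hmgcs1, and in 275 of 10024 genes tested (2.74%).

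H2-Eb1 (chr17:34305617-34305866, forward strand) and H2-Aa (chr17:34287824-34288073, reverse strand) encode chains of MHC class II and were higher. The same CCAAT box, in capitals, was found in 4 of the 6 class II presentation genes with a promoter.
H2-Eb1: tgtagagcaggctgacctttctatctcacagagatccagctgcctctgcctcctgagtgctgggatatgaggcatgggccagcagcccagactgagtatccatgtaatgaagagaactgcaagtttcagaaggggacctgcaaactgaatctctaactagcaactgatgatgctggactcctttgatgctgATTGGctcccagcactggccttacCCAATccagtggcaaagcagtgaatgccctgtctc
H2-Aa: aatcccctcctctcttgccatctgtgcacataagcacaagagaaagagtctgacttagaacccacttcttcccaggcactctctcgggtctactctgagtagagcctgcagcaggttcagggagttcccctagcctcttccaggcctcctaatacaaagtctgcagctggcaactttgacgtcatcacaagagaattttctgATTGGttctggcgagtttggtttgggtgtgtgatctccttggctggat

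Granule serine proteases held the largest difference of all. Of 23 measured, 17 were above background on at least 1 array, and 9 of these were higher and none lower (median over the 17, 1.81). Over all 23 the median was 0.28. A gene below background in control was tested only where the Dll1 array was above it. Mcpt1 read 4.82 in control BMMCs and 12.46 after Dll1 coculture, with 12.41 with TGF-β1 and 12.72 in intestinal mast cells. It was at least 162-fold higher, since the control value lay below background. Mcpt2 read 5.75 in control BMMCs and 11.74 after Dll1 coculture (63.7-fold higher), with 12.35 with TGF-β1 and 12.33 in intestinal mast cells. So both mucosal chymases were low in control BMMCs alone and high on each of the other 3 arrays.

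Mcpt4, the chymase typical of connective tissue, had another order. It read 4.53 in control BMMCs and 10.15 after Dll1 coculture, with 5.04 with TGF-β1 and 10.41 in intestinal mast cells, and was at least 32.8-fold higher than in control. It was therefore below background on the control and TGF-β1 arrays and high on the Dll1 and intestinal arrays. Cathepsin G (Ctsg) and Mcpt8, 2 further proteases of the same chromosome 14 cluster, read high on the same 2 arrays. Ctsg read 5.41 in control BMMCs and 8.70 after Dll1 coculture (9.79-fold higher), with 5.93 with TGF-β1 and 8.64 in intestinal mast cells. Mcpt8, known as a basophil protease, read 8.50 in control BMMCs and 10.89 after Dll1 coculture (5.25-fold higher), with 7.68 with TGF-β1 and 10.94 in intestinal mast cells. The T and NK cell granzyme Gzma read 4.62 in control BMMCs and 7.92 after Dll1 coculture, with 4.50 with TGF-β1 and 10.33 in intestinal mast cells, and was called higher. In RefSeq order, Mcpt1, Mcpt2, Mcpt4, Mcpt8 and Ctsg formed a run of 5 neighbouring tested genes that were all higher. Members of this family are similar in sequence, and signal that a probe set may take from a near-identical relative was not separated.

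The pseudogene Mcpt-ps1 read 8.42 in control BMMCs and 11.14 after Dll1 coculture (6.57-fold higher). Among tryptases, Tpsab1 read 8.25 in control BMMCs and 10.05 after Dll1 coculture (3.50-fold higher), and TGF-β1-treated BMMCs read higher still at 11.81. Tpsb2 read 11.55 and 11.83 and was not called. Cma1, also known as mast cell protease 5, read 12.12 and 11.37 and was not called, and Gzmb read 11.70 and 12.19. Gzmc read 4.51 and 6.08 and Prss34 5.74 and 4.95, each above background on 1 of the arrays and not called. The wider list of mucosal mast cell genes had 3 of 7 tested genes higher, Mcpt1, Mcpt2 and Itgae, and none lower. Its median was 0.99, and 0.75 over all 8 measured. The connective tissue list had Mcpt4 and Tpsab1 higher and the receptor Mrgpra4 lower among 10 tested, with a median of -0.09.

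**Figure D2:**
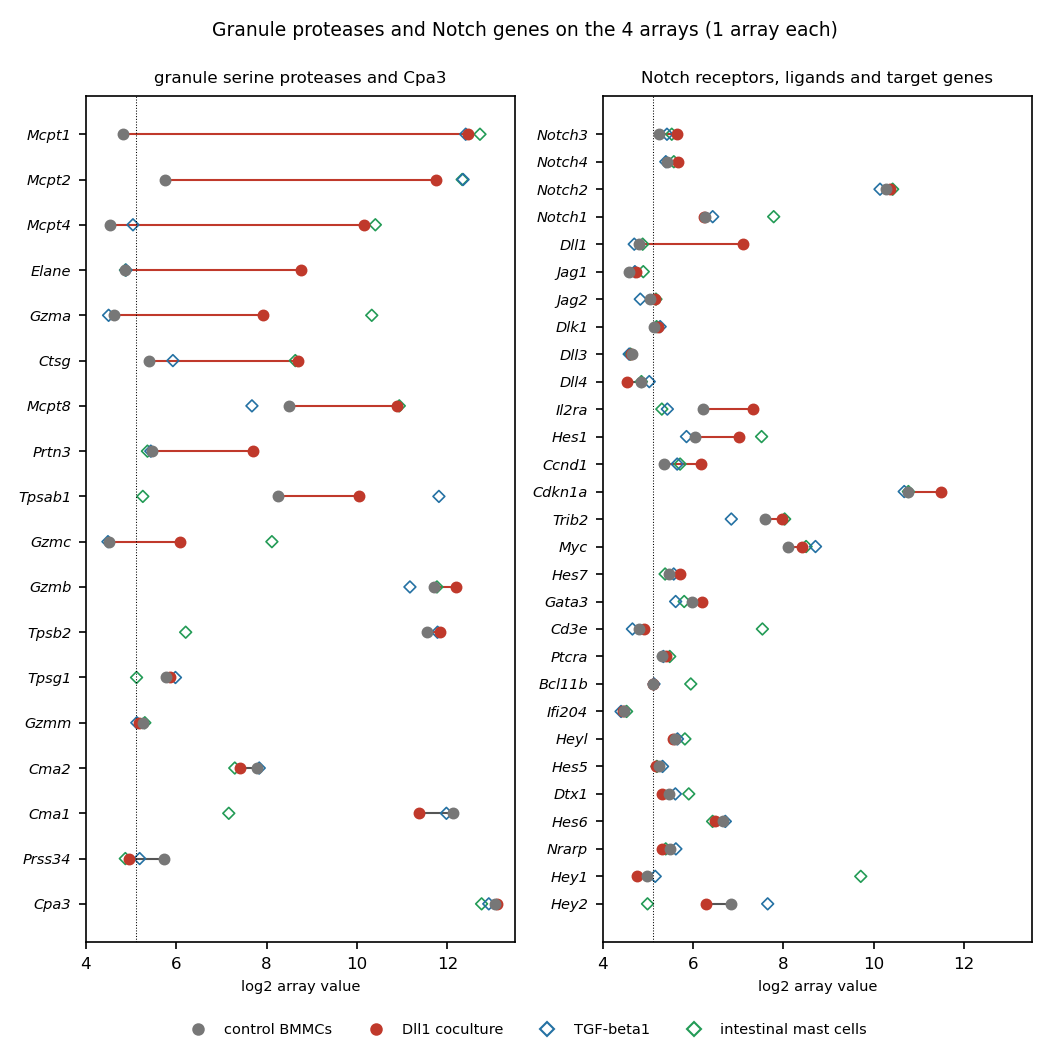
Each row is a gene and each symbol its log2 level on 1 array, with filled grey and red circles for control and Dll1 BMMCs joined by a line, open diamonds for the TGF-β1 and intestinal arrays, and a dotted line at the control array's background limit. Mcpt4, Ctsg and Mcpt8 are high on the Dll1 and intestinal arrays, whereas among Notch genes the long line is that of Dll1 itself.

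The Notch pathway's own genes moved less. Of the receptors, Notch2 read 10.26 in control BMMCs and 10.35 after Dll1 coculture. Notch1 read 6.25 and 6.25, Notch3 5.25 and 5.64 and Notch4 5.43 and 5.67, so the 4 receptors differed by -0.01 to 0.38 and none was called. Among ligands, Dll1 read 4.79 in control BMMCs and 7.10 after Dll1 coculture and was at least 3.94-fold higher. A second Dll1 probe set read 4.72 and 5.13, and the mean of the pair was not called. The feeder cells carried mouse Dll1, and how much of its signal came from them was not tested. The other ligands, Jag1, Jag2, Dll3, Dll4 and Dlk1, lay between 4.54 and 5.23 on the 2 arrays.

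Among 15 tested Notch target genes, 1 was higher and none lower (median 0.21). Over all 19 measured the median was 0.10. It was 0.01 under repeated quantile normalization and -0.005 with the array medians subtracted, so it gives no direction. The called gene was Il2ra, the alpha chain of the interleukin-2 receptor, at 6.21 in control BMMCs and 7.31 after Dll1 coculture (2.15-fold higher). It was not called once the array medians were subtracted. With 16 subtracted from the linear values, 3 of the 15 target genes were higher and none lower. That offset enlarges the differences of dim genes by arithmetic, so this count is no independent check. Hes1, the repressor most often used as a Notch readout, read 6.03 in control BMMCs and 7.01 after Dll1 coculture, with 5.85 with TGF-β1 and 7.51 in intestinal mast cells. Its difference of 0.97 fell just short of 2-fold. Ccnd1 (cyclin D1) read 5.36 and 6.18 and Myc 8.09 and 8.40, while Hey2 read 6.84 and 6.28 and Nrarp 5.49 and 5.31, none of them called. Hey1 was below background on both arrays, Hes5 read 5.26 and 5.18 and Dtx1 5.46 and 5.31. Within the machinery list, 1 of 26 genes was higher and 1 lower (median -0.05). The co-activator Maml2 read 6.39 in control BMMCs and 7.52 after Dll1 coculture (2.19-fold higher), and Lfng, a glycosyltransferase that modifies Notch receptors, read 8.43 and 7.41 (2.04-fold lower). The call on Lfng was lost under repeated quantile normalization.

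Genes of the T lineage that depend on Notch were split. Cd7, a surface glycoprotein of T and NK cells and their progenitors, read 5.50 in control BMMCs and 10.20 after Dll1 coculture (26.0-fold higher), with 5.14 with TGF-β1 and 10.05 in intestinal mast cells. It was therefore near background on the control and TGF-β1 arrays and high on the Dll1 and intestinal arrays. Il7r, the interleukin-7 receptor, read 6.03 and 7.08 (2.06-fold higher), a call lost when the array medians were subtracted. Thy1 read 5.51 and 5.97 and Gata3 5.98 and 6.19, and neither was called. Cd3d, Cd3e, Cd3g, Cd2, Rag2 and Bcl11b were below background on both arrays. All 5 measured lymphoid markers were below background on both arrays as well. On the intestinal array 4 of these 5 were above background, with Cd3g at 8.84. Whether lymphoid RNA contributed to the Cd7 and Gzma values of that array was not tested.

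Granule genes of eosinophils rose to high values. Of 6 measured, 4 were above background on at least 1 array and all 4 were higher, and the other 2 were below it on both. The median over all 6 was 2.99. Prg2, the major basic protein, read 5.40 in control BMMCs and 11.45 after Dll1 coculture (66.0-fold higher), with 4.75 with TGF-β1 and 5.08 in intestinal mast cells. Its relative Prg3 read 4.68 in control BMMCs and 9.55 after Dll1 coculture (at least 21.6-fold higher), and the eosinophil peroxidase Epx read 4.92 and 8.83 (at least 13.1-fold higher). Ear6, a ribonuclease, read 4.32 and 6.38 (at least 2.40-fold higher). Prg3, Epx and Ear6 were above background on the Dll1 array and on none of the other 3. They were thus tested only through the Dll1 array, and a lower call was not possible for them. Prg2 was just above background on the control array too, but below it on the TGF-β1 and intestinal arrays.

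Surface markers of eosinophils did not rise with them. Siglecf read 4.82 and 5.01 and the interleukin-5 receptor chain Il5ra 4.92 and 4.92, below background on both arrays. The eotaxin receptor Ccr3 read 5.93 and 5.58 and was not called. Alox15, a lipoxygenase that eosinophils share with other myeloid cells, read 5.38 in control BMMCs and 7.37 after Dll1 coculture (3.97-fold higher), with 5.40 with TGF-β1 and 7.80 in intestinal mast cells. The eosinophil marker list as a whole had 2 of 7 genes above background on the control array and 5 of 7 on the Dll1 array. Its summed level, on the log2 scale, was 7.89 on the control array, 12.03 on the Dll1 array, 7.61 with TGF-β1 and 8.06 in intestinal cells. Whether eosinophils or their precursors remained among the selected cells was not tested.

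Genes listed for the primary granules of neutrophils and promyelocytes were also higher, with 6 of 10 tested higher and none lower. The median was 1.95, and 1.79 over all 11 measured. The neutrophil elastase Elane read 4.87 in control BMMCs and 8.76 after Dll1 coculture (at least 12.5-fold higher). Myeloperoxidase (Mpo) read 5.14 and 7.97 (7.09-fold higher), and proteinase 3 (Prtn3), the genomic neighbour of Elane, read 5.46 and 7.71 (4.76-fold higher). Ms4a3, a tetraspan protein of granulocyte progenitors, read 5.50 and 7.29 (3.45-fold higher). The other 2 higher genes were Ctsg, described above, and Nkg7, a granule membrane protein of cytotoxic cells, at 5.23 and 7.34 (4.32-fold higher). Nkg7 also stood in the list of T, NK and B cell markers and read 8.70 in intestinal mast cells, so it is not particular to neutrophils. Elane and Ctsg also count among the granule serine proteases above, so the 2 lists overlap. The serpin Serpinb1a, an inhibitor of these proteases, read 11.97 and 11.07 and was not called.

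Of 13 tested secondary granule and mature neutrophil genes, 3 were higher and 1 lower (median 0.77, and 0.41 over all 16 measured). The calprotectin chains S100a8 and S100a9 read 4.58 and 8.85 (at least 13.3-fold higher) and 4.65 and 7.12 (at least 3.99-fold higher). Ngp, a granule protein, read 4.70 and 7.87 (at least 6.74-fold higher). Camp, Ltf and Lcn2 were below background in control and read 5.55, 5.63 and 5.90 after Dll1 coculture, without reaching the call. Ly6g, the surface antigen of mature neutrophils, went the other way, at 6.40 and 5.35 (2.07-fold lower). Of the 11 neutrophil and promyelocyte markers, 4 were above background on the control array and 11 on the Dll1 array, and the summed level was 8.62 and 11.02. Whether such cells contributed was not tested.

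In all, 17 genes were higher and above background on the Dll1 array alone among the 4 arrays. Besides Prg3, Epx, Ear6, Elane, S100a8, S100a9, Ngp and Dll1 these were Nid1, Plpp3, Nfib, Nrp1, Ddr2, Anxa3, Arnt2, Cemip and Wfdc21. Nid1 (nidogen), a protein of basement membranes, read 4.44 in control BMMCs and 8.89 after Dll1 coculture (at least 13.7-fold higher), and its second probe set read 4.75 and 7.21. Ddr2, a collagen receptor of connective tissue cells, read 4.68 and 6.60 (at least 2.79-fold higher). Nrp1, a receptor for semaphorins and VEGF, read 4.78 and 6.68 (at least 2.96-fold higher) and Cemip, a protein of hyaluronan breakdown, 4.51 and 6.20 (at least 2.11-fold higher). The set was drawn up after its values were seen. No gene that was lower was above background on the control array alone.

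Marker genes of adherent cells moved in part. Of 27 tested genes in the longer adherent cell list, 4 were higher (Dll1, Actn1, Anxa2, Thbs1) and 1, Cdh2, was lower (median 0.26). After subtraction of 16 from the linear values (the offset below), 7 were higher. Actn1 (alpha-actinin) read 5.20 in control BMMCs and 7.16 after Dll1 coculture, and Anxa2 (annexin A2) read 5.25 and 7.03. Thrombospondin 1 (Thbs1) read 4.79 and 6.20, a call lost when the array medians were subtracted. Collagen genes stayed low: Col1a1 read 5.56 and 5.42, Col1a2 5.03 and 4.95 and Col4a1 5.22 and 5.34. Of 9 feeder markers, 3 were above background on the control array and 7 on the Dll1 array, with a summed level of 8.25 and 9.02. The 9 include Dll1 itself, which the feeder cells carried, so part of this rise is built in. Of the 7, Col1a1, Col4a1, Fn1 and Krt18 read 5.34 to 5.47, close to the limit of 5.13. The array's probes were made for mouse, and the signal of hamster RNA on them was not tested.

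**Figure D3:**
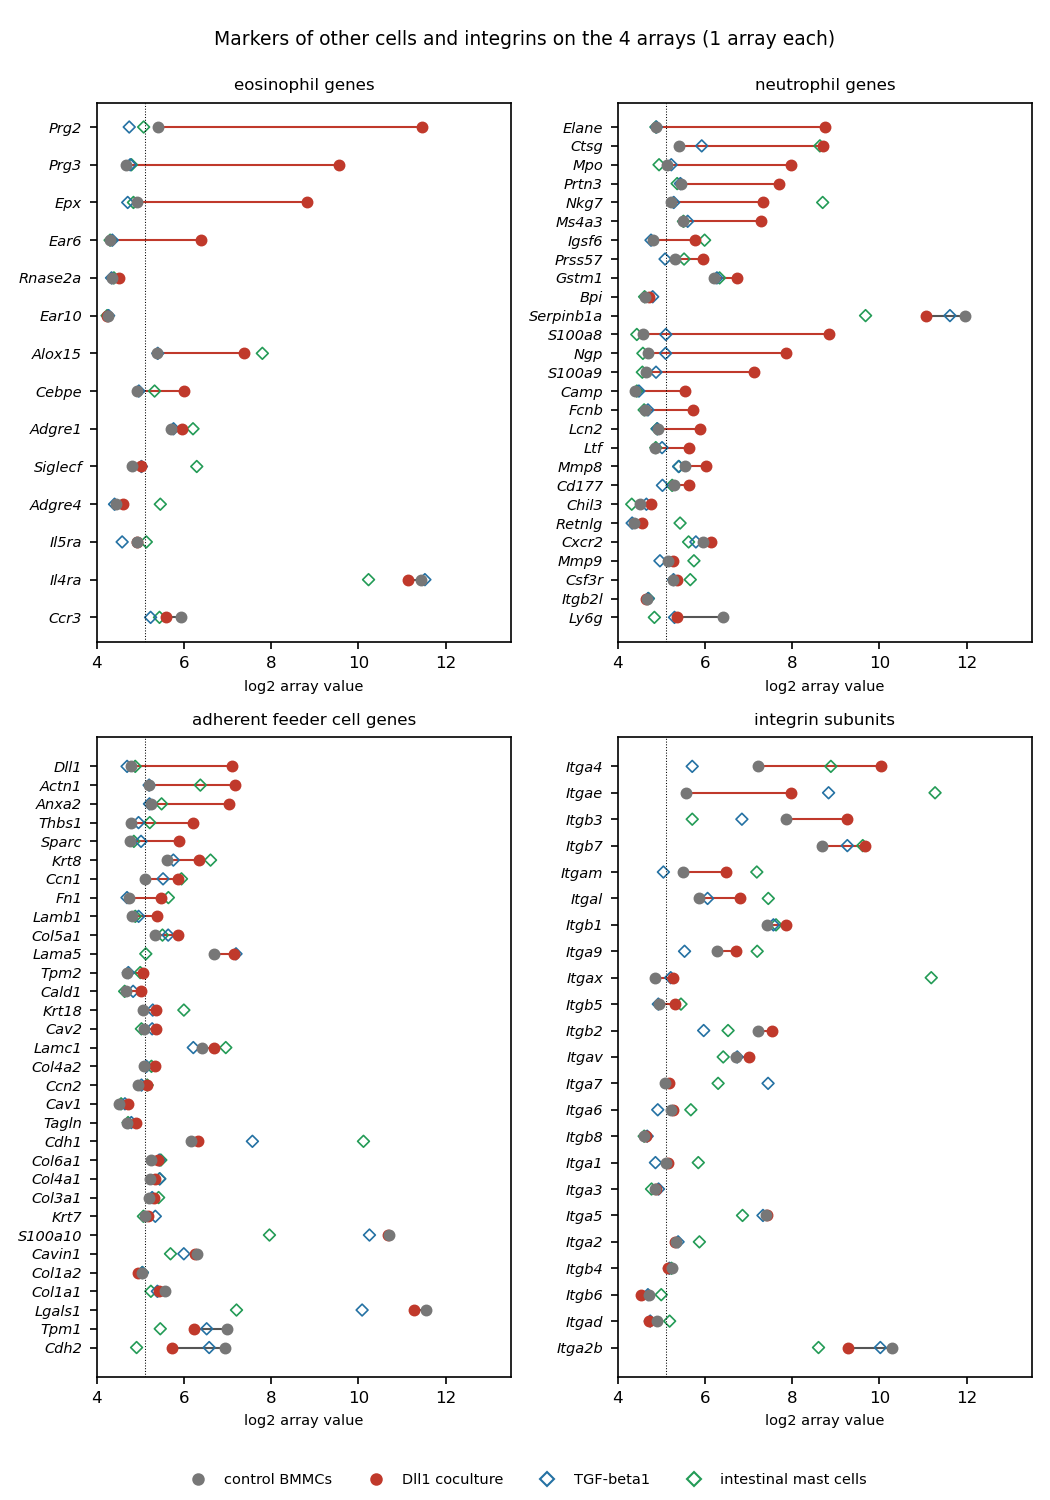
The log2 level of each gene is drawn for the control array (grey circle), the Dll1 array (red circle) and the TGF-β1 and intestinal arrays (open diamonds), with a dotted line at the control array's background limit. Prg2, Prg3, Epx, Elane and S100a8 stand out on the Dll1 array, while the eosinophil surface genes Siglecf and Il5ra stay at background in both BMMC groups.

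MHC class II genes, which present peptides to CD4+ T cells, were higher. Of 10 tested genes, 5 were higher and none lower (median 0.97, and 0.43 over all 15 measured). H2-Ea read 4.70 in control BMMCs and 9.05 after Dll1 coculture (at least 15.3-fold higher), with 4.50 with TGF-β1 and 8.99 in intestinal mast cells. H2-Eb1 read 5.27 and 8.08 (7.03-fold higher), H2-Ab1 5.90 and 8.63 (6.62-fold higher) and H2-Aa 5.09 and 6.26 (at least 2.20-fold higher). These 4 genes, next to each other among tested genes in RefSeq order, carry the classical chains. H2-DMb2, a chain of the peptide-loading chaperone, read 6.02 and 7.55 (2.89-fold higher).

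Genes of the class II list whose probe set carries other symbols too were not read. Among the rest, H2-DMa read 6.70 and 7.47, and Ciita, the master activator of class II genes, 5.10 and 5.53, and neither was called. The costimulatory genes Cd80 and Cd86 were below background on both arrays. In the list of macrophage and dendritic cells, which carry class II themselves, none of 13 tested genes was higher and 2 were lower (median 0.24). Of the 9 macrophage and dendritic markers, 3 were above background on the control array and 5 on the Dll1 array, with a summed level of 8.44 and 8.54. On the intestinal array 7 of the 9 were above background, with a summed level of 11.54. The part of such cells in the class II values of any array was not tested. MHC class I genes, with 13 tested, had no called member and a median of 0.23.

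Immediate early genes are those that cells switch on within minutes of a stimulus. Of 39 measured, all above background on at least 1 array, 22 were higher and none lower, and the median was 1.19. Dusp1, a phosphatase that switches off MAP kinases, read 6.38 in control BMMCs and 11.35 after Dll1 coculture (31.4-fold higher), with 6.26 with TGF-β1 and 12.25 in intestinal mast cells. The nuclear receptor Nr4a1 read 5.95 in control BMMCs and 10.51 after Dll1 coculture (23.7-fold higher), with 5.85 with TGF-β1 and 12.36 in intestinal mast cells. Egr1 and Fosb, 2 transcription factors, read 5.53 and 10.37 (28.6-fold higher) and 5.81 and 10.35 (23.2-fold higher). Each of these 4 was low on the control and TGF-β1 arrays and high on the Dll1 and intestinal arrays.

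The other members followed with smaller steps. Junb read 8.33 and 11.05 (6.56-fold higher), Fos 5.17 and 7.07 (3.75-fold higher) and Jun 8.17 and 9.36 (2.28-fold higher). Among Egr genes, Egr2 was 5.51-fold and Egr3 6.48-fold higher. Zfp36, which speeds the decay of inflammatory messages, was 5.26-fold higher, and Nfkbiz and Tnfaip3, controllers of NF-kB, 2.99-fold and 2.53-fold. Of the ERK feedback phosphatases, Dusp5 was 7.79-fold and Dusp6 3.97-fold higher. Not all members moved: Nr4a2 read 5.79 and 5.89, Dusp2 5.37 and 5.43, Maff 5.22 and 5.27 and Jund 6.07 and 6.17. The Dll1 and intestinal arrays both held cells that had been selected before lysis, and no selection is named for the other 2, so the effect of handling cannot be told apart from that of the coculture. Heat shock genes, with 13 tested, had no higher and 1 lower member (median -0.01). Unfolded protein response genes had no called member among 23 (median -0.03).

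**Figure D4:**
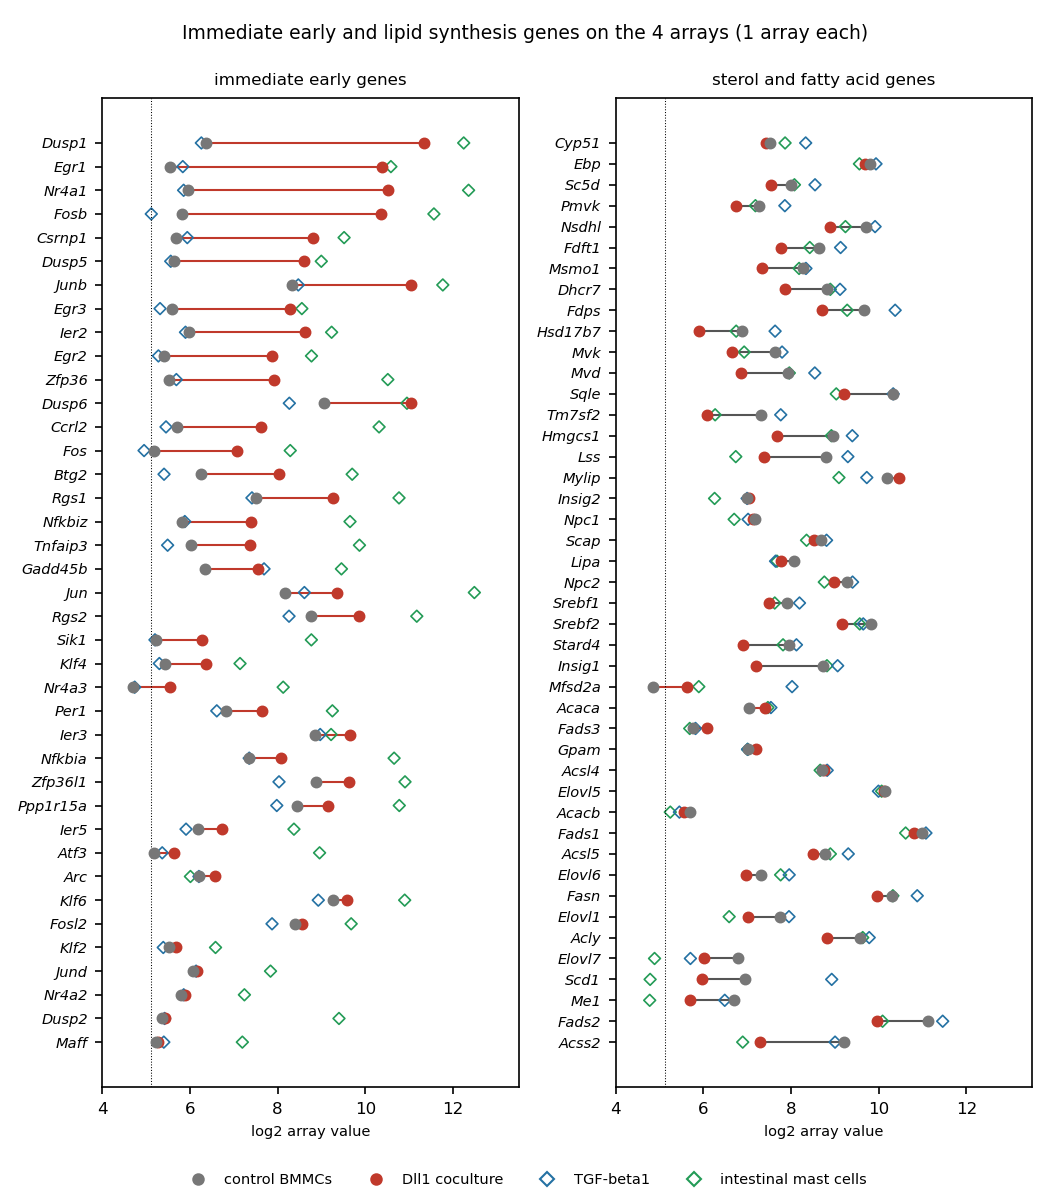
Log2 levels of immediate early genes (left) and of sterol and fatty acid genes (right) are drawn for the control array (grey circle), the Dll1 array (red circle) and the TGF-β1 and intestinal arrays (open diamonds). The 39 immediate early genes lie to the right of their control value after Dll1 coculture, and the 16 cholesterol synthesis genes, from Cyp51 down to Lss, lie to the left.

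Cholesterol synthesis genes shifted the opposite way. All 16 measured genes read lower after Dll1 coculture, by -0.10 to -1.40, with a median of -0.97, and 5 of the 16 passed the 2-fold call. The count was 10 with the array medians subtracted and 9 with the offset. Lanosterol synthase (Lss) read 8.79 in control BMMCs and 7.39 after Dll1 coculture (2.64-fold lower). Hmgcs1, an early enzyme of the path, read 8.96 and 7.67 (2.44-fold lower), and Tm7sf2, a sterol reductase, 7.33 and 6.08 (2.38-fold lower). Squalene epoxidase (Sqle) read 10.33 and 9.21 (2.17-fold lower) and Mvd, mevalonate decarboxylase, 7.93 and 6.86 (2.10-fold lower). Of the others, Fdps read 9.67 and 8.70 and Fdft1 8.64 and 7.77, just short of the call.

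Of 10 genes of sterol uptake and control, 2 were lower and none higher (median -0.31). Insig1, which holds the sterol sensor in the endoplasmic reticulum, read 8.73 in control BMMCs and 7.19 after Dll1 coculture (2.90-fold lower), and the sterol carrier Stard4 7.95 and 6.90 (2.08-fold lower). Srebf2, the transcription factor of the path, read 9.81 and 9.16 and was not called. Of 18 tested fatty acid genes, 3 were lower and none higher (median -0.30). Acss2, which makes acetyl-CoA from acetate, read 9.21 and 7.28 (3.79-fold lower), the desaturase Fads2 11.12 and 9.96 (2.24-fold lower) and malic enzyme Me1 6.69 and 5.69 (2.00-fold lower). The cholesterol exporters were higher. Abcg1 read 6.32 and 7.71 (2.63-fold higher) and Abca1 5.57 and 6.82 (2.39-fold higher), the 2 called among 9 tested targets of the sterol receptor LXR (median 0.27).

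Of 47 G2 and mitosis genes, 2 were lower and none higher, and the median was -0.44. With the array medians subtracted 5 were lower, and with the offset 7. Mki67, the Ki-67 antigen, read 9.37 in control BMMCs and 7.64 after Dll1 coculture (3.33-fold lower), with 9.85 with TGF-β1 and 9.82 in intestinal mast cells. Prc1, which bundles spindle microtubules, read 7.48 and 6.33 (2.21-fold lower). Aurkb read 8.45 and 7.51 and Tpx2 7.60 and 6.75, and neither was called. Of 38 tested genes of G1/S and DNA replication, E2f8 (3.46-fold) and the chromatin assembly subunit Chaf1b (2.30-fold) were lower (median -0.18). Among 17 cell cycle inhibitors and D cyclins, 4 were higher and none lower (median 0.08). The antiproliferative genes Btg2 and Btg1 read 6.26 and 8.04 (3.42-fold higher) and 6.86 and 8.32 (2.74-fold higher). The kinase inhibitor Cdkn2b read 5.87 and 6.92 (2.08-fold higher), a call lost when the array medians were subtracted, and the damage-induced Gadd45b 6.35 and 7.54 (2.29-fold higher).

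Of 19 tested integrin subunits, 3 were higher and 1 lower (median 0.38), and with the offset 6 were higher. Itga4, the alpha-4 chain that binds VCAM-1 and, with Itgb7, the gut addressin MAdCAM-1, read 7.21 in control BMMCs and 10.04 after Dll1 coculture (7.09-fold higher), with 5.71 with TGF-β1 and 8.89 in intestinal mast cells. Itgae, the alpha chain that binds E-cadherin with Itgb7, read 5.57 in control BMMCs and 7.97 after Dll1 coculture (5.27-fold higher), with 8.84 with TGF-β1 and 11.28 in intestinal mast cells. Their shared partner Itgb7 read 8.68 and 9.66 and fell just short of the call. Itgb3 read 7.86 and 9.26 (2.64-fold higher), while its platelet partner Itga2b read 10.30 and 9.27 (2.04-fold lower). The glycoprotein Emb (embigin) read 6.60 and 9.19 (6.04-fold higher), with a second probe set at 5.07 and 5.21. The tetraspanin Cd81 read 5.15 and 6.49 (2.53-fold higher).

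Of 30 tested growth factor and cytokine receptors, 4 were higher and 2 lower (median -0.12), and 2 were higher with the array medians subtracted. Tnfrsf9 (4-1BB), a costimulatory receptor, read 6.62 in control BMMCs and 9.70 after Dll1 coculture (8.42-fold higher), with 7.91 with TGF-β1 and 6.18 in intestinal mast cells. The 2 chains of the interleukin-18 receptor went opposite ways: Il18r1 read 7.60 and 6.09 (2.84-fold lower) and Il18rap 6.44 and 7.65 (2.31-fold higher). The erythropoietin receptor Epor read 6.96 and 5.55 (2.64-fold lower). Of 29 tested cytokines and chemokines, 6 were higher and 1 lower (median 0.34). Il1b read 6.18 and 8.03 (3.61-fold higher), lymphotoxin beta (Ltb) 6.11 and 7.64 (2.89-fold higher) and oncostatin M (Osm) 6.42 and 7.80 (2.60-fold higher). Csf1, the macrophage growth factor, was 2.36-fold higher, and the chemokines Ccl4 and Ccl3, neighbours in the genome, 2.42-fold and 2.24-fold. Ccl6 read 8.02 and 6.83 (2.28-fold lower). Of 21 tested chemoattractant and lipid receptors, Cxcr4, the receptor of the bone marrow chemokine CXCL12, read 6.47 and 7.90 (2.69-fold higher) and Ccrl2 5.70 and 7.63 (3.81-fold higher). Ptafr, the receptor of platelet-activating factor, was lower (2.03-fold), a call lost under repeated quantile normalization.

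Targets and parts of the TGF-β pathway were read because TGF-β1 is the other factor of the study. Of 26 tested TGF-β target genes, Junb, Itgae, Gadd45b and Cdkn2b were higher and none was lower (median 0.22). Junb and Gadd45b are immediate early genes too. The inhibitor Smad7 read 7.42 and 8.01 and was not called. Of 20 tested receptors and SMADs, 1 was higher, Thbs1, an activator of latent TGF-β (median 0.13).

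Several genes that characterise BMMCs were lower. The mast cell core list had 2 lower members among 24 and no higher one (median -0.25). The serotonin transporter Slc6a4 read 7.59 in control BMMCs and 5.16 after Dll1 coculture (5.39-fold lower), with 4.91 with TGF-β1 and 5.06 in intestinal mast cells, so control BMMCs alone read well above background. Rgs13, a brake on receptor signals in mast cells, read 8.54 and 6.59 (3.87-fold lower). In the histamine and serotonin list, 3 of 9 tested genes were lower and none higher (median -0.29). Ddc, the decarboxylase that makes serotonin, read 8.17 and 6.09 (4.23-fold lower), and Gch1, the first enzyme of tetrahydrobiopterin synthesis, 8.10 and 7.07 (2.05-fold lower), a call lost under repeated quantile normalization. Histidine decarboxylase (Hdc) read 6.62 and 7.18 and tryptophan hydroxylase (Tph1) 12.18 and 11.89, neither of them called.

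Mrgpra4, a Mas-related G protein-coupled receptor, read 11.09 in control BMMCs and fell by 3.09 on the log2 scale after Dll1 coculture (8.52-fold lower), with 10.12 with TGF-β1 and 6.12 in intestinal mast cells. Of 24 tested activating and inhibitory surface receptors, it was lower together with Pirb and Cd200r1, and none was higher (median -0.42). The 21 genes of IgE receptor signalling had no called member, and their median was -0.36. The kinase Prkcd read 10.06 and 9.22 and the phosphatase Inpp5d 11.14 and 10.31, the largest steps in that list. Of 45 tested transcription factors of mast and myeloid cells, 1 was called, Gfi1b, at 8.93 and 7.73 (2.29-fold lower). Gata2 read 10.54 and 9.86, Gata1 8.24 and 7.62, Mitf 8.92 and 9.04 and Cebpe, a factor of late granulocytes, 4.93 and 6.00, none of them called.

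Of 10 tested megakaryocyte and erythroid genes, 4 were lower and 1 higher (median -0.59), and the signs of all 10 were split, with 6 below 0 and 4 above. The clotting factor F13a1 read 7.63 in control BMMCs and 5.12 after Dll1 coculture (at least 5.64-fold lower), and the platelet glycoprotein Gp5 7.83 and 5.63 (4.58-fold lower). Epor and Itga2b were the other 2 lower members and Itgb3 the higher one. Of 9 tested complement regulators and components, 2 were lower and none higher (median -0.22). Cd59a, which blocks the membrane attack complex, read 7.24 and 5.15 (4.25-fold lower), and Cd55 9.73 and 8.71 (2.03-fold lower), the latter lost under repeated quantile normalization.

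Interferon response genes had 4 of 36 tested members lower and none higher (median 0.04). The guanylate-binding protein Gbp4 had the largest decrease of all named genes, at 9.31 in control BMMCs and 5.71 after Dll1 coculture (12.1-fold lower), with 7.71 with TGF-β1 and 6.49 in intestinal mast cells. Its neighbour Gbp10 read 8.43 and 6.49 (3.84-fold lower). Ifitm1, a membrane protein that restricts viruses, read 8.15 and 6.32 (3.56-fold lower), and the signal transducer Stat2 8.44 and 6.70 (3.35-fold lower). Other members did not follow, such as Ifih1 at 5.73 and 6.54 and Ifit3 at 5.65 and 6.29.

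Further genes with large decreases lay outside the lists described above. The endogenous retroviral gene Erv3 read 10.11 in control BMMCs and 6.60 after Dll1 coculture (11.5-fold lower). The nuclear noncoding RNA Neat1, the scaffold of paraspeckles, read 9.33 and 6.36 (7.87-fold lower), and Malat1, from the same locus, read 7.21 and 5.88 in one probe set and 11.06 and 10.66 in the other. The betaine transporter Slc6a12 read 9.39 and 7.17 (4.64-fold lower), the angiopoietin receptor Tek 8.10 and 6.12 (3.95-fold lower), and the serpin Serpinb2 8.46 and 6.83 (3.09-fold lower). Among large increases outside them, the sodium pump subunit Atp1b1 read 7.85 and 10.22 (5.15-fold higher), the neurturin receptor Gfra2 6.41 and 8.69 (4.85-fold higher) and the pepsinogen Pga5 6.43 and 9.20 (6.81-fold higher). Cd69, an early activation antigen, read 9.22 and 11.29 (4.20-fold higher). It stood in the list of basophil markers, where 4 of 12 tested genes were higher and 1 lower (median -0.03). The other higher ones there were Mcpt8, Csf1 and Ccl3, and the lower one was Itga2b.

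**Figure D5:**
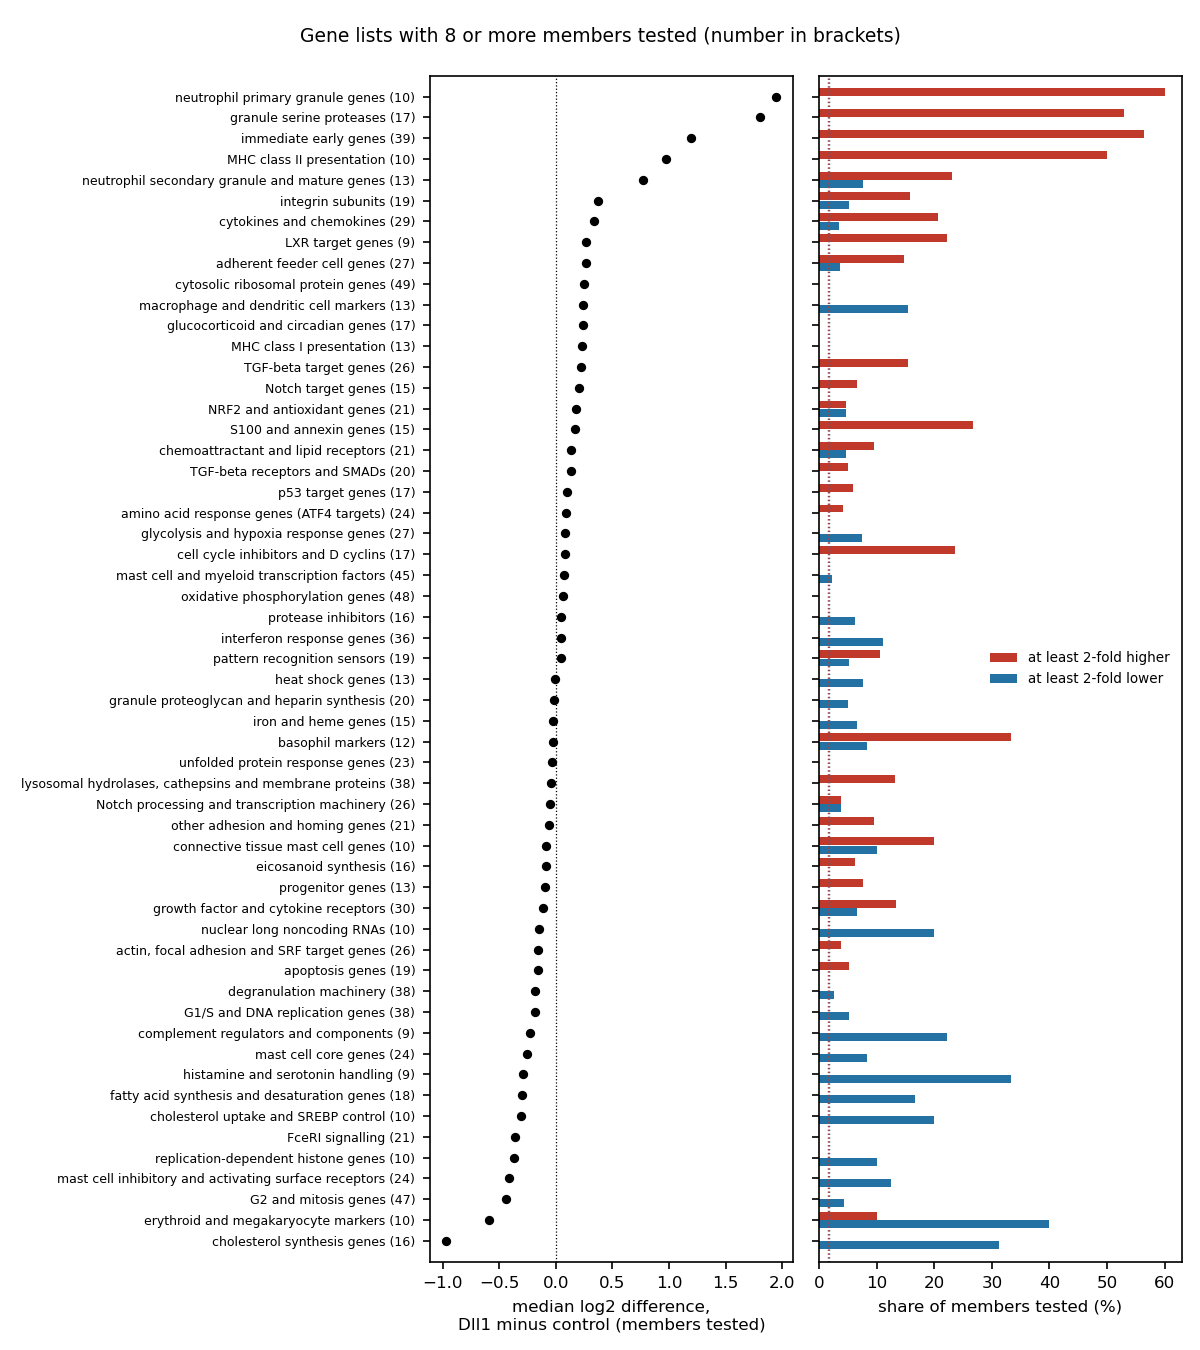
For each gene list with at least 8 members tested, the left panel gives the median log2 difference, Dll1 minus control, with a dotted line at the median of all genes tested, and the right panel gives the share of members at least 2-fold higher (red) or lower (blue), with dotted lines at 1.64% and 1.78%. Neutrophil primary granule genes, granule proteases, immediate early genes and class II genes have the highest medians of tested members, and cholesterol synthesis genes the lowest. Over all measured members the median of granule proteases is 0.28, below those of class II genes (0.43) and secondary granule and mature neutrophil genes (0.41).

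Housekeeping and organelle lists are set beside the shares over all genes tested, 1.64% higher and 1.78% lower. Oxidative phosphorylation genes had no called member among 48 tested (median 0.07), and 49 cytosolic ribosomal protein genes had none either (median 0.25). Degranulation machinery had no higher and 1 lower gene among 38 (median -0.18), against 4 lower with the array medians subtracted and 3 with the offset. Lysosomal genes had 5 higher and none lower among 38 (median -0.05), with Ctsg in the lead, and 3 higher with the array medians subtracted. Granule proteoglycan and heparin synthesis had 1 lower gene among 20, the glycosyltransferase Extl3 (median -0.02), and eicosanoid synthesis 1 higher among 16, Alox15 (median -0.09).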

How the data were processed

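RNA of 4 mast cell preparations was measured on Affymetrix arrays, 1 array a group, with 2 ng of RNA amplified per sample, per the labels' protocols. The authors deposited 1 table of log2 values per probe set. How the probes were summarised and normalized, and on which genome build, is not given in the sources used here. Precision is limited by the number of arrays, and there is no read depth. The deposited values were used without further normalization. Gene names came from the platform annotation: 23521 probe sets had 1 symbol, 1814 several and 8458 were not listed. Of 22180 genes, 1082 had more than 1 probe set, and the probe set of highest mean level (4 arrays) stood for the gene.

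Differences were Dll1 minus control, called at 2-fold on values raised to the background limit, which was 5.21 on the TGF-β1 array and 5.11 on the intestinal array. There was no replicate, so no test was run. The 63 gene lists, the members and the comparisons were chosen with earlier results of these data known. They are described by counts and medians of tested members. A member below background in control is tested only through the Dll1 array, which can raise the median of such a list. Named genes were the 25 highest and 25 lowest differences measured on both arrays, the 10 largest bounds in each direction, the 6 members of each list that differed most, all members of 7 lists, and the cell type markers. Predicted genes, clones, small RNAs and receptor segments were left out by symbol. Genes beside these were chosen after their values were seen. Promoters came from RefSeq (GRCm38.p6), without chromosome 18, and 19 motifs were searched on both strands. The calling rule was tested on simulated data. Python 3.11.15, pandas 2.3.3, numpy 2.4.6 and matplotlib 3.10.9 were used. The alternatives were other scalings, background limits, probe set rules and folds, an offset of 16 on the linear scale and, added after seeing the data, genes at log2 7 or more on either array.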

Additional observations from a re-analysis of the deposited data

Results flagged for a closer look

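Probe sets that could not be named from a single symbol also carried differences between the 2 arrays. Among 2540 probe sets above background that were not listed in the platform annotation, 70 were at least 2-fold higher after Dll1 coculture and 37 lower. Those with the largest increases read 5.44 in control and 11.29 after Dll1 coculture, 4.22 and 10.62, and 4.96 and 10.45. Among 962 probe sets with several symbols, 18 were at least 2-fold higher and 18 lower. The largest increase among them read 6.03 in control BMMCs and 10.29 after Dll1 coculture. Probe sets that are not listed could not be named here, and those with several symbols were not assigned to a single gene.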

How the results depend on the processing

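Of the counts of genes at least 2-fold higher (209) or lower (227), none moved by over 1.5 times with the scaling, the background limit or the probe set rule. Calling at 1.5-fold gave 628 higher and 953 lower, and calling at 4-fold gave 50 and 17. Subtracting an offset of 16 on the linear scale gave 360 and 393. Fewer or more genes pass another fold by construction. The offset enlarges log2 differences by arithmetic, most for dim genes, so counts with it are no independent check. Among genes at log2 7 or more on either array, an alternative chosen after seeing the data, 142 were higher and 172 lower. Without the immediate early, heat shock, feeder and other-cell lists, 162 were higher and 218 lower. Of 150 named genes that were called, 143 kept their call with the array medians subtracted, 143 under repeated quantile normalization, 140 when probe sets of a gene were averaged and 149 with the offset, and none changed direction. With that average, the calls lost were Arsb, Car9, Cd209a, Cdh2, Cped1, Dll1, Ighm, Kcnab3, Slc7a11 and Sox4. The medians of 16 of 63 lists changed sign with the array medians subtracted, so a list median near 0 gives no direction. No paired analysis was possible because each group had 1 array. Dim genes have compressed differences, and spread between cultures was not measured.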

Other observations

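Families read by their symbols alone, chosen after the values were seen, gave further counts. Over all genes tested, 1.64% were higher and 1.78% lower. Of 267 tested genes with a Zfp symbol, most of them zinc finger transcription factors, 8 were lower after Dll1 coculture and 1, the decay factor Zfp36, was higher, with a median of -0.15. Of 216 solute carriers (Slc), 2 were higher and 3 lower, with a median of 0.05. Of 8 guanylate-binding proteins (Gbp), 2 were lower and none higher, and the median was -0.95. All 4 tested genes with an Mcpt number were higher, and so were both tested Btg genes.

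Runs of neighbours in RefSeq order that were called the same way included Cemip, Abhd17c and Arnt2, which were all higher. Abhd17c, a depalmitoylating enzyme, read 6.31 in control BMMCs and 8.12 after Dll1 coculture. Pairs of higher neighbours were Prg2 with Prg3, Lst1 with Ltb, Cd48 with Slamf1, and Actn1 with Dcaf5. F13a1 and Nrn1 were a pair of lower neighbours, and Nrn1 (neuritin) read 7.52 and 5.16.

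Some members of smaller lists passed the call as well, beside shares of 1.64% higher and 1.78% lower over all genes tested. Of 19 tested pattern recognition sensors, 2 were higher and 1 lower, with the inflammasome sensor Nlrp6 at 5.43 and 6.99. Of 15 S100 and annexin genes, 4 were higher and none lower, among them Anxa3 at 4.91 and 6.25. Of 21 NRF2 and antioxidant genes, 1 was higher, the cystine transporter Slc7a11, and 1 was lower, too few to read as a result for the list. Slc7a11 read 5.13 and 6.47 in one probe set and 4.34 and 4.34 in the other, and their mean was not called.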
